A study of Mus musculus with 6 samples.

Results

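Slit proteins and their Robo receptors, and netrin-1 with its receptors Dcc and Unc5, were measured as 10 genes in the adult mouse somatosensory cortex, by taking every row whose symbol was *Slit1*, *Slit2*, *Slit3*, *Robo1*, *Robo2*, *Robo3*, *Ntn1*, *Dcc*, *Unc5c* or *Unc5d*. These were 10 of the 21667 named genes in the files, and all 10 passed the filter on low values. The study asked which transcripts differ in the cortex after early loss of *Mef2c*, a transcription factor of neurons. PolyA RNA was sequenced from 3 control mice and 3 *Mef2c* conditional knockout (cKO) mice, all male and on a mixed SVeV-129 and C57BL/6J background. Both genotypes carried floxed *Mef2c* on both chromosomes (*Mef2c* fl/fl), and the cKO mice also carried Cre recombinase under *Emx1* (Emx1-Cre), which is active from the embryo onward in most excitatory neurons of the forebrain and in some glia. Control mice were littermates, so the comparison is of floxed mice with and without Cre, and no group with Cre alone is analysed here. Replicate 1 of each genotype was 14 weeks old, and replicates 2 and 3 were 12 weeks old. Whole tissue was used, so a lower level of a transcript can come from fewer cells of a type or from less RNA per cell, and these cannot be told apart here.

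Slits are large secreted ligands best known for repelling growing axons and migrating neurons, and Robo receptors carry that signal into the cell, where it acts on the actin skeleton through GTPase regulators. Netrin-1 attracts axons that carry Dcc and repels those in which an Unc5 receptor is present, so one ligand can have opposite effects. In the adult cortex most of these genes remain expressed in subsets of neurons, and *Unc5d* is known as a gene of layer 4, the layer that receives most thalamic input.

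Levels are given as CPM, the reads of a gene per 1000000 reads counted in genes of the mouse, from 19326365 to 54128334 such reads per mouse. Across the 14619 tested genes, Pearson's r of the log2 levels was 0.992 to 0.995 between mice of one genotype and 0.978 to 0.981 between genotypes. *Mef2c* itself had 800.3, 771.8 and 800.2 CPM in control mice and 1231.3, 1276.3 and 1468.2 in cKO mice, a log2 fold change of 0.74 (SE 0.07, adjusted p = 0.00018, limma). A read total over the whole gene includes exons outside the floxed part, so it does not check the deletion, and the groups are named as labelled. In the paper, western blots of cKO cortex showed a strong reduction of MEF2C protein. *Emx1* carries the Cre insertion in cKO mice. It had 16.5, 20.3 and 18.8 CPM in control mice and 5.71, 4.97 and 5.1 in cKO mice (log2 fold change -1.79, adjusted p = 1.2e-05, limma). Markers of the labelled tissue were present in every mouse, with the summed level of 10 pyramidal neuron genes between 7101 and 8193 CPM in control mice and between 7703 and 8772 in cKO mice.

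In the *Mef2c* cKO cortex 1 of the 10 genes rose and 2 fell. *Slit1* was 2.12-fold higher, *Slit2* was 3.71-fold lower and *Unc5d* was 3.21-fold lower. Genes were called at a Benjamini-Hochberg adjusted p below 0.05 over all tested genes and an absolute log2 fold change above 0.3. By these cut-offs 13.7% of all tested genes were called, 5.88% as higher and 7.78% as lower in cKO mice. The values of the 3 control and 3 cKO mice did not overlap for 4 of the 10 genes, against 33.8% of all tested genes. The median log2 fold change of the 10 genes was -0.10, beside 0.01 over all tested genes, and their median absolute log2 fold change was 0.29, beside 0.13. The 10 genes were chosen with earlier results of these data known, so setting them beside all tested genes is description only.

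**Figure D1:**
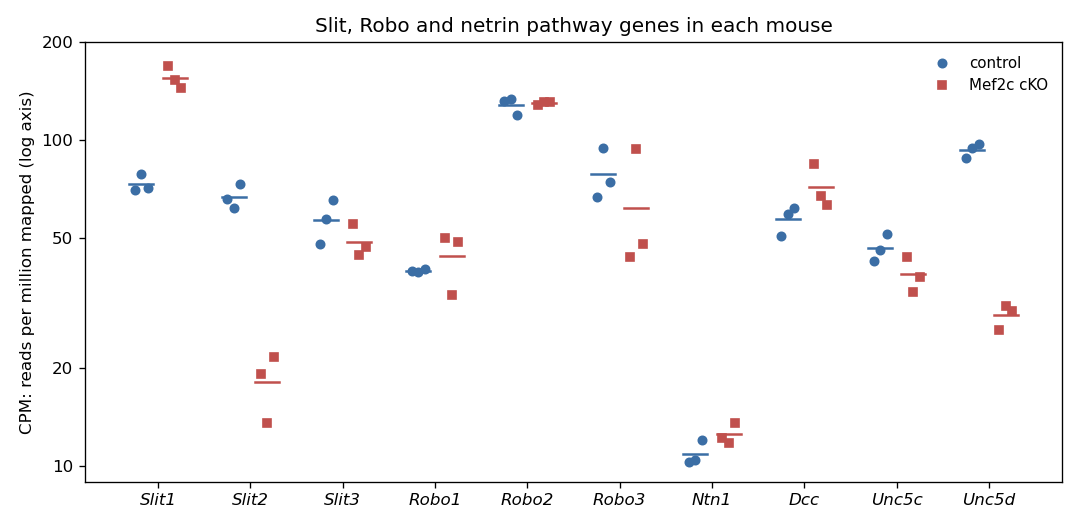
CPM (reads per 1000000 reads counted in genes, log axis) of the 10 genes in each of the 3 control mice (circles) and 3 *Mef2c* cKO mice (squares), with lines at the group means. *Slit1*, *Slit2* and *Unc5d* are separated by genotype by wide gaps, *Dcc* by a narrow one, and the other genes overlap.

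The ligand *Slit1* lies on chromosome 19 (mm9, chr19:41674747-41818155, minus strand). It had 70.4, 79.0 and 71.3 CPM in control mice and 169.5, 153.4 and 144.7 in cKO mice. Every cKO mouse was above every control mouse, and the lowest cKO value was well above the highest control value. The means were 73.6 ± 4.71 and 155.9 ± 12.6 CPM (SD, n = 3 mice each), a log2 fold change of 1.08 (95% interval 0.91 to 1.25, adjusted p = 1.9e-05, limma). Counting error was small here, since the mouse with the fewest reads still had 2396.

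*Slit2* encodes a second Slit ligand, from a gene on chromosome 5 (mm9, chr5:48374394-48697521, plus strand). It went the other way, with 65.9, 62.1 and 73.2 CPM in control mice and 19.1, 13.5 and 21.6 in cKO mice. The groups were far apart relative to their spread, with means of 67.1 ± 5.61 and 18.1 ± 4.16 CPM (SD, n = 3 each). The log2 fold change was -1.91 (95% interval -2.25 to -1.56, adjusted p = 4.7e-05, limma). The lowest cKO value came from 261 reads in cKO mouse 2, a counting error of 6.2%, which is small beside the difference between genotypes.

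*Slit3*, the third ligand, lies on chromosome 11 (mm9, chr11:34934726-35522009, plus strand). It had 48.0, 57.2 and 65.6 CPM in control mice and 55.3, 44.4 and 46.9 in cKO mice. The groups overlapped, because cKO mouse 1 was above control mouse 1. The log2 fold change was -0.21 (95% interval -0.48 to 0.06) and did not pass the test (adjusted p = 0.28, limma). Among the 12-week mice alone, in which 9.96% of tested genes were called, the value was -0.42 (SE 0.09, adjusted p = 0.031, limma), which passed.

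The 3 Slit genes therefore differed among themselves, and the mix of Slit transcripts was unlike between genotypes. Levels of different genes were compared per kilobase of exon, as CPM per kb, using merged exons of the mm9 gene annotation. The summed Slit level was 24.2, 26.9 and 27.7 in control mice and 39.0, 34.1 and 33.6 in cKO mice. *Slit1* made up 47.4% ± 3.4 of this sum in control mice and 74.0% ± 1.7 in cKO mice (SD, n = 3 each). *Slit2* made up 17.0% ± 1.4 in control mice and 3.38% ± 0.83 in cKO mice. *Slit3* made up 35.6% ± 3.2 and 22.6% ± 1.0. The ratio of the *Slit1* to the *Slit2* level per kb was 2.73, 3.24 and 2.49 in control mice and 22.6, 29.0 and 17.1 in cKO mice. No mouse of one genotype came near the ratio in the other. A length error would change this ratio by the same factor in every mouse. The summed level and the shares depend on the exon lengths used, 5921, 15091 and 6067 bases for *Slit1*, *Slit2* and *Slit3*. In CPM, without lengths, *Slit1* and *Slit2* were near each other in control mice (means of 73.6 and 67.1).

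**Figure D2:**
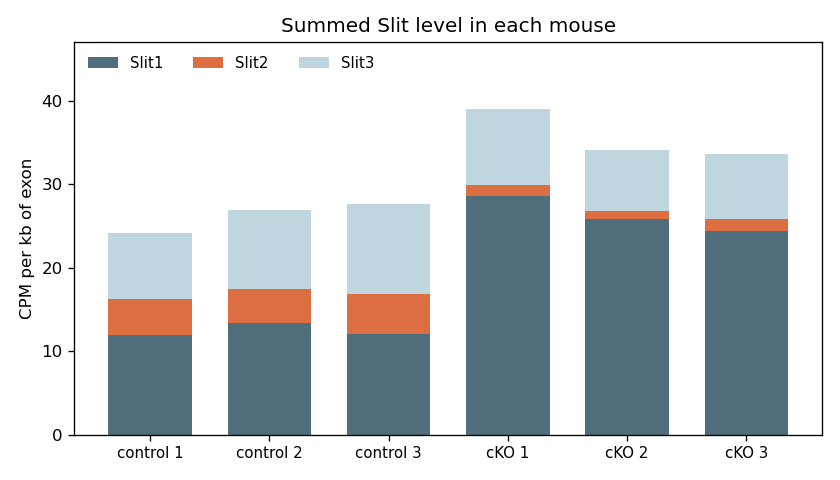
Stacked bars give the level of *Slit1*, *Slit2* and *Slit3* in each mouse, in CPM per kb of exon, for the 3 control and 3 *Mef2c* cKO mice. The *Slit1* segment is larger and the *Slit2* segment is a thin band in all 3 cKO mice, and their summed level is 33.6 or more against 27.7 or less in control mice.

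Because MEF2C is a transcription factor, the RefSeq promoters of these genes (GRCm38.p6, 250 bases before to 50 after the start) were searched on both strands for the MEF2 consensus and for the TATA box letters TATAAA. The 2 motifs are both rich in T and A and can match the same bases. Promoters of 6 of the 10 genes were searched, 8 promoters in all, with several of them from *Robo2*. *Dcc* was left out of the search, and *Slit1*, *Ntn1* and *Unc5d* had no promoter listed. Of the genes past the cut-offs, only *Slit2* was therefore searched. None of the 8 held the MEF2 consensus, which 3.19% of 32851 promoters held, and 1 of the 8 held TATAAA, which 13.6% held. The letters say nothing of binding outside these windows. The 100 bases before the start are shown for *Slit2*, the gene that fell the most and the promoter with TATAAA (in capitals, from position -28 relative to the start), and for *Slit3*, its paralog that did not pass the test.
*Slit2* (chr5:47983055-47983154, plus strand): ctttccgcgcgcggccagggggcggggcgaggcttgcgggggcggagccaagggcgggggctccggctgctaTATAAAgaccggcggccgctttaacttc
*Slit3* (chr11:35121356-35121455, plus strand): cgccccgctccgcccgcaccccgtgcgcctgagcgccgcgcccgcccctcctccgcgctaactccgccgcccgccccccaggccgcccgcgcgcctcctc

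None of the 3 Robo receptors passed the test with all 6 mice. *Robo1*, a receptor for all Slits (mm9, chr16:72663394-73046340, plus strand), had 39.8, 39.4 and 40.2 CPM in control mice and 50.1, 33.4 and 48.7 in cKO mice. The control mice were nearly equal, while cKO mouse 2 was below all of them and the other two were above. The log2 fold change was 0.12 (95% interval -0.19 to 0.43, adjusted p = 0.61, limma). *Robo2*, the second main Slit receptor and a neighbour of *Robo1* on chromosome 16 (mm9, chr16:73892551-74412070, minus strand), had 131.7, 133.7 and 119.8 CPM in control mice and 128.4, 131.0 and 131.0 in cKO mice. Its log2 fold change was 0.02 with a narrow 95% interval of -0.11 to 0.15 (adjusted p = 0.86, limma), so a difference of the size seen for *Slit1*, *Slit2* or *Unc5d* lay outside the interval.

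*Robo3* encodes the divergent Robo, known from commissural axons and able to bind the secreted protein Nell2 (mm9, chr9:37223254-37240760, minus strand). It had 67.1, 95.0 and 74.6 CPM in control mice and 43.9, 94.1 and 47.9 in cKO mice. Mice 1 and 3 of the cKO group were below every control mouse, but cKO mouse 2 sat near the highest control value. The log2 fold change was -0.42 with the widest interval of the 10 genes (95% interval -1.0 to 0.15, adjusted p = 0.32, limma). Without cKO mouse 2, when 12.7% of tested genes were called, *Robo3* was at -0.77 (adjusted p = 0.0073, limma) and *Robo1* at 0.31 (adjusted p = 0.021), both past the cut-offs.

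The mouse on which the *Robo1* and *Robo3* values turned, cKO mouse 2, had the smallest library, with 19326365 reads. Its summed levels of 3 marker lists differed from those of the other cKO mice. For the deep layer list it had 379.7 CPM, inside the control range of 368.8 to 425.9, while cKO mice 1 and 3 were above that range at 517.1 and 485.6. For the striatum list it was below the control range (443.0 against 518.6 to 622.7) and cKO mice 1 and 3 were above it (738.7 and 639.7). For the hippocampus list it was also below (268.6 against 291.9 to 339.0) and cKO mice 1 and 3 were above (353.4 and 427.0). These sums lean on a few high genes. *Calb1* was the only hippocampus gene below the control range in cKO mouse 2, and it fell in every cKO mouse (69.6, 42.6 and 64.7 against 144.8 to 171.0 CPM). On the striatum list *Foxp1* also fell in every cKO mouse (153.0, 147.7 and 149.3 against 236.0 to 253.1). In cKO mouse 2 *Drd1* and *Penk* were above the control range and the other tested striatum genes below it. The part of tissue sampled or of depth in the *Robo1* and *Robo3* results was not tested.

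Netrin-1, the ligand of Dcc and of the Unc5 receptors, had the lowest level of the 10 genes in control mice. *Ntn1* (mm9, chr11:68022866-68214325, minus strand) had 10.3, 10.4 and 12.0 CPM in control mice and 12.2, 11.8 and 13.5 in cKO mice. Only cKO mouse 2 fell within the control range, and the group means were 10.9 ± 0.926 and 12.5 ± 0.865 CPM (SD, n = 3 each). The log2 fold change was 0.20 (95% interval -0.03 to 0.43) and did not pass the test (adjusted p = 0.25, limma), from 229 to 730 reads per mouse. Another annotated transcript on the same strand shares 127 bases of its exons, 2.0% of their length, and reads there could belong to either.

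*Dcc*, the receptor through which netrin-1 attracts axons (mm9, chr18:71418392-72510723, minus strand), had 51.0, 59.5 and 61.9 CPM in control mice and 84.7, 67.3 and 63.2 in cKO mice. All cKO mice were above all control mice, but the lowest cKO value was only just above the highest control value and cKO mouse 1 stood out. The means were 57.5 ± 5.71 and 71.7 ± 11.4 CPM (SD, n = 3 each), a log2 fold change of 0.31 (95% interval 0.05 to 0.57). It did not pass the test (adjusted p = 0.10, limma), and it was 0.10 (SE 0.07) in the 12-week mice alone.

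The 2 Unc5 receptors differed from each other. *Unc5c*, a netrin receptor for repulsion (mm9, chr3:141128528-141497888, plus strand), had 42.5, 46.1 and 51.6 CPM in control mice and 43.9, 34.2 and 38.1 in cKO mice. Mice 2 and 3 of the cKO group were below every control mouse, and cKO mouse 1 was within the control range. The log2 fold change was -0.27 (95% interval -0.51 to -0.04, adjusted p = 0.12, limma). In the 12-week mice alone it was -0.43 (SE 0.10, adjusted p = 0.035, limma), past the cut-offs, and it also passed without cKO mouse 1, at -0.37 (adjusted p = 0.046), when 11.5% of tested genes were called.

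*Unc5d*, the paralog that marks layer 4 neurons and can bind Flrt proteins as well as netrin (mm9, chr8:29757189-30329810, minus strand), had 88.3, 94.7 and 97.2 CPM in control mice and 26.2, 30.9 and 30.0 in cKO mice. Values were tight within each genotype and far apart between them. The means were 93.4 ± 4.61 and 29.0 ± 2.51 CPM (SD, n = 3 each), a log2 fold change of -1.68 (95% interval -1.86 to -1.51, adjusted p = 3e-06, limma). The ratio of the *Unc5c* to the *Unc5d* level per kb was 0.354, 0.358 and 0.39 in control mice and 1.23, 0.811 and 0.934 in cKO mice.

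Other genes of layer 4 were lower too. All 6 genes of a layer 4 list fell, where 7.78% of all tested genes were called lower. The list was chosen with earlier results of these data known. The summed level of its genes was 232.3 to 249.9 CPM in control mice and 61.2 to 67.2 in cKO mice. None of the 6 was at 0 in every mouse. The 3 of largest change were *Rspo1*, a secreted Wnt enhancer (log2 fold change -5.04), *Scnn1a*, a sodium channel subunit (-2.56), and *Kcnh5*, a potassium channel (-2.46). Of 8 upper layer genes, 3 fell and 2 rose, and the summed level was 683.3 to 739.2 CPM in control mice and 542.8 to 571.9 in cKO mice. One gene, *Cux2*, is on both lists. What part the layer 4 genes as a whole have in the *Unc5d* result was not tested.

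**Figure D3:**
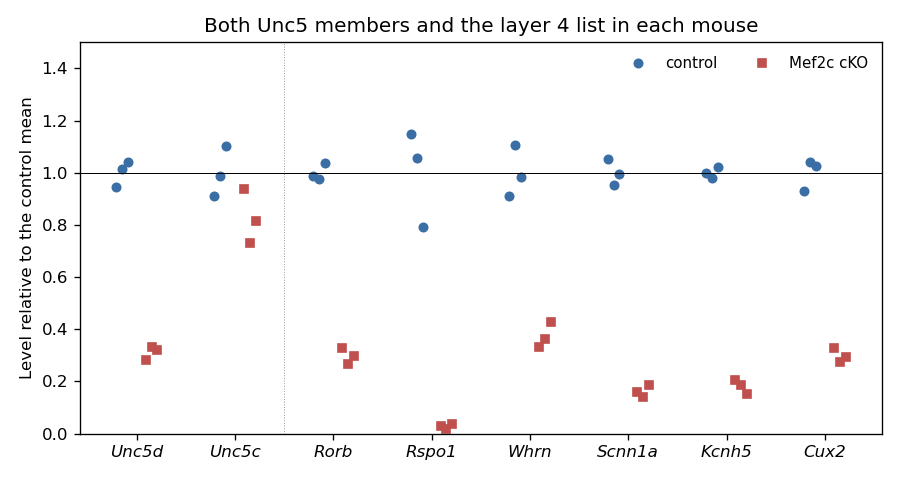
Level of *Unc5d*, *Unc5c* and the 6 genes of the layer 4 list in each control mouse (circles) and each *Mef2c* cKO mouse (squares), divided by the mean of the 3 control mice. *Unc5d* and the 6 layer 4 genes sit far below 1 in every cKO mouse, whereas *Unc5c* in cKO mouse 1 lies among the control mice.

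Per kilobase of exon the order of the 10 genes differed between genotypes. In control mice *Slit1* was highest (12.4 ± 0.796 CPM per kb, SD, n = 3), followed by *Robo3* (11.6 ± 2.13), *Unc5d* (10.4 ± 0.515), *Slit3* (9.38 ± 1.46), *Robo2* (7.77 ± 0.456) and *Dcc* (7.12 ± 0.708). The mice of each of these genes overlapped those of the next. Below a gap came *Slit2* (4.44 ± 0.372), *Robo1* (4.16 ± 0.0421) and *Unc5c* (3.84 ± 0.378), again overlapping one with the next, and *Ntn1* was lowest (1.74 ± 0.147). In cKO mice *Slit1* stood alone at the top (26.3 ± 2.12). *Robo3*, *Dcc*, *Slit3* and *Robo2* followed between 9.14 and 7.88, each overlapping the next, then *Robo1* (4.62 ± 0.973). *Unc5d* was seventh in this order (3.25 ± 0.28) and overlapped *Unc5c* (3.18 ± 0.405). *Slit2* was last (1.20 ± 0.276), below *Ntn1* (1.99 ± 0.138) in every mouse. Exons came from one annotation, which may not be the one used in counting. An error in a length would shift a gene by the same factor in both genotypes, but it would change the order of genes and the summed Slit level and shares.

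Leaving out each mouse in turn changed none of the calls for *Slit1*, *Slit2* and *Unc5d*. Their log2 fold changes ranged from 1.02 to 1.13, from -2.05 to -1.71 and from -1.73 to -1.61, and the highest adjusted p of the 18 values was 0.00043 (limma). In the 12-week mice alone, which are only replicates 2 and 3 of each genotype, they were 0.99, -1.97 and -1.65. There 5 of the 10 genes were past the cut-offs, *Slit3* and *Unc5c* being the others, and 9.96% of all tested genes were called.

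**Figure D4:**
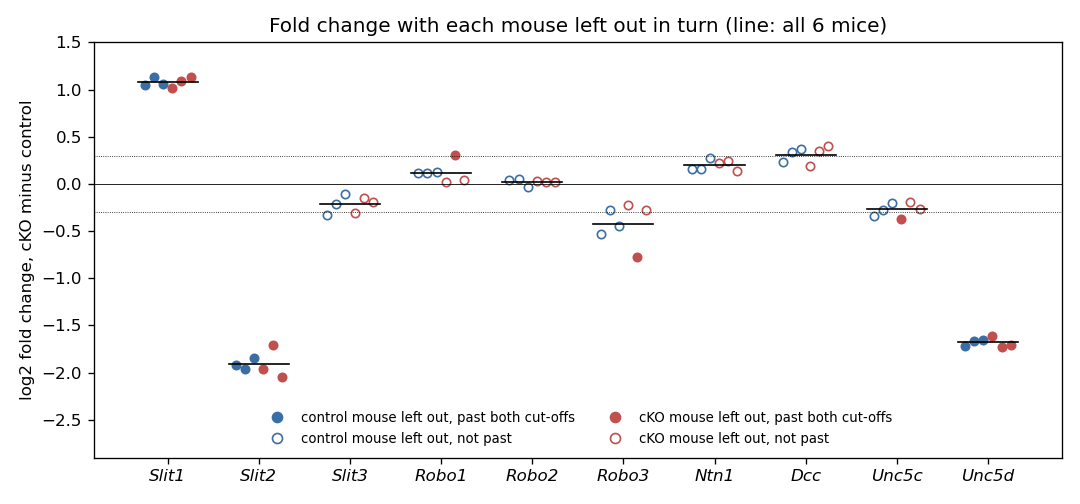
Log2 fold change (cKO minus control) of each gene with each of the 6 mice left out in turn, in blue for a control mouse and red for a cKO mouse, filled where both cut-offs are passed, with a line at the value from all 6 mice. All points of *Slit1*, *Slit2* and *Unc5d* are filled and lie close together, and only the removal of cKO mouse 2 (*Robo1*, *Robo3*) or cKO mouse 1 (*Unc5c*) fills a point of another gene.

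A list of 57 other genes of the 2 pathways was read in the same way. One, *Lphn3*, did not match a symbol, and *Draxin*, a secreted netrin-binding protein, was too low to be tested, at 0.265 to 0.718 CPM in control mice and 0.31 to 1.25 in cKO mice. Of the 55 tested, 5 rose, 6 fell and 44 did not pass, so 11 were called, where 13.7% of all tested genes were. Their median log2 fold change was -0.02 and their median absolute log2 fold change was 0.14, close to the 0.13 of all tested genes.

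Among 10 other ligands and ligand-binding partners, 1 rose and 4 fell, with a median log2 fold change of -0.19. *Nell2*, a secreted ligand of Robo3, had 704.5, 723.9 and 732.8 CPM in control mice and 1080.0, 958.8 and 1047.8 in cKO mice (log2 fold change 0.51, SE 0.06, adjusted p = 0.00056, limma). Every cKO mouse was above every control mouse. *Cbln4*, a secreted cerebellin able to bind Dcc, had 19.3, 19.8 and 10.6 in control mice and 4.15, 2.69 and 4.01 in cKO mice (-2.13, SE 0.25, adjusted p = 0.00043), the largest change of the list. *Flrt1*, of the Unc5-binding Flrt family, fell by 0.68 on the log2 scale (SE 0.07, adjusted p = 0.00026). Its relatives *Flrt2* and *Flrt3* were at -0.17 and 0.09 and did not pass.

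Of the netrins on this list, 2 fell, and each lost its call in some of the fits that left out a mouse. *Ntn4* was at -0.57 (SE 0.13, adjusted p = 0.018, limma) and did not pass without control mouse 2 (adjusted p = 0.069). *Ntn5* had 15.1, 12.4 and 8.36 CPM in control mice and 1.68, 7.86 and 4.34 in cKO mice, at -1.56 (SE 0.46, adjusted p = 0.048). It failed the test in 5 of the 6 fits that left out a mouse, all but the one without cKO mouse 2, and was at -0.98 without cKO mouse 1.

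**Figure D5:**
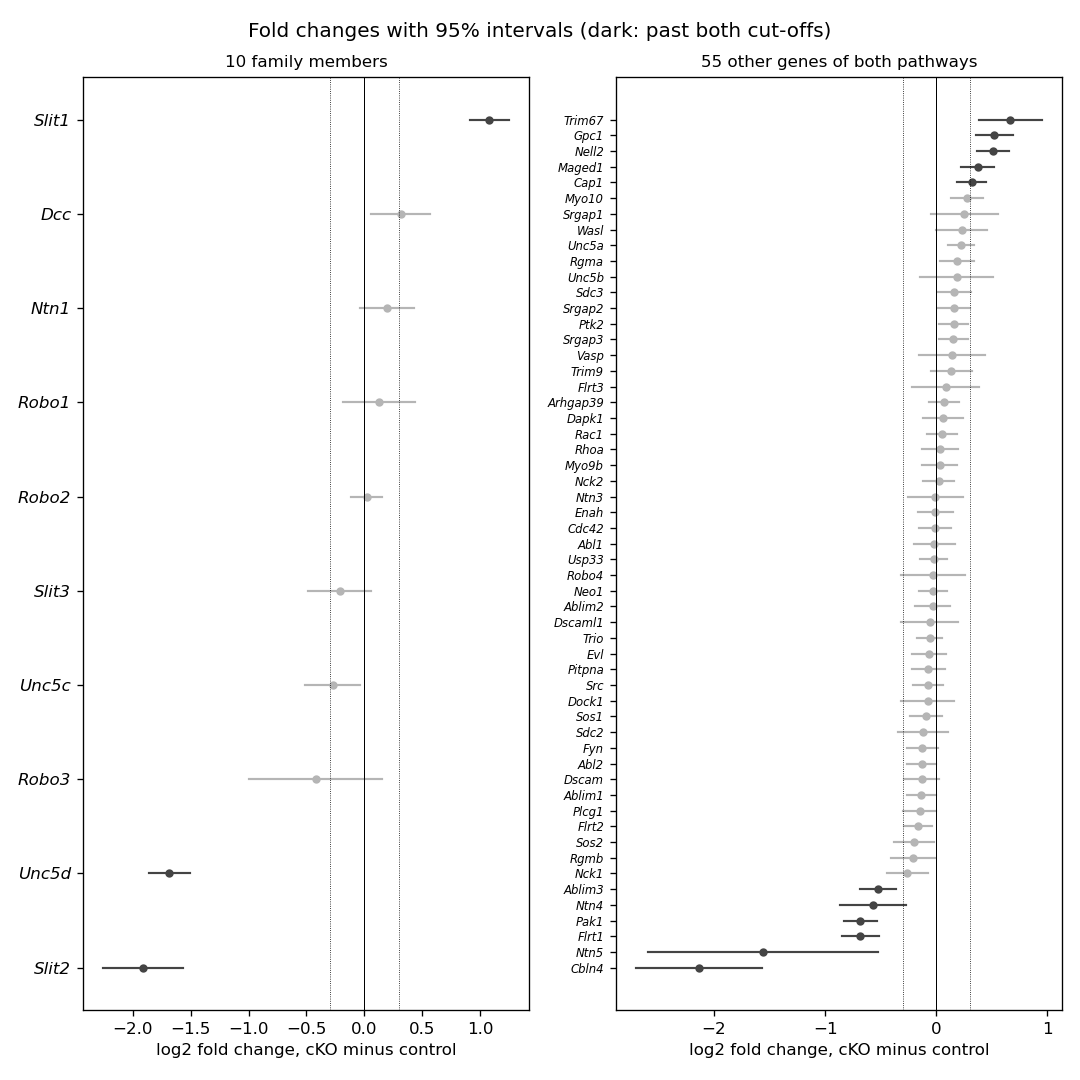
Log2 fold change (cKO minus control) with its 95% interval from limma for the 10 genes (left) and for the 55 tested other genes of both pathways (right), with dotted lines at -0.3 and 0.3 and dark symbols where both cut-offs are passed. Most of the 55 genes lie close to 0, and *Cbln4* and *Ntn5* lie farthest to the left.

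Of 9 other receptors and co-receptors, 1 rose and none fell. *Gpc1*, a heparan sulfate proteoglycan that binds Slits, was at 0.52 (SE 0.07, adjusted p = 0.0012, limma). *Unc5a*, a further Unc5 receptor, was at 0.22 (adjusted p = 0.021), under the cut-off on the fold change. The Dcc relative *Neo1* was at -0.03 and *Unc5b* at 0.18, neither past the test.

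Genes acting inside the cell were read in 2 sets. Of 20 Slit-Robo effectors, 1 rose and 1 fell, with a median log2 fold change of 0.01. *Pak1*, a kinase activated by Rac1 and Cdc42, had 488.2, 465.0 and 438.4 CPM in control mice and 268.0, 297.4 and 302.5 in cKO mice (-0.68, SE 0.07, adjusted p = 0.00016, limma). *Cap1*, an actin regulator, was at 0.32 (SE 0.06, adjusted p = 0.0054) and at 0.28, under the cut-off, without control mouse 3.

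Of 16 netrin-Dcc effectors, 2 rose and 1 fell. *Trim67*, a ubiquitin ligase that binds Dcc, was at 0.66 (SE 0.13, adjusted p = 0.0062, limma) but did not pass in the 12-week mice alone (0.58, adjusted p = 0.070). *Maged1*, a partner of Unc5 receptors, was at 0.37 (SE 0.07, adjusted p = 0.0041). *Ablim3*, an actin-binding LIM protein, fell by 0.52 on the log2 scale (SE 0.07, adjusted p = 0.0011). *Myo10*, a motor that carries Dcc, was at 0.28, under the cut-off on the fold change.

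The genes whose log2 levels followed *Slit1* most closely over the 6 mice, among 14610 compared, were *Rasl10a* (Pearson's r 0.9997), *Mdga1* (0.998) and *Mnt* (0.9976). Their own log2 fold changes were 1.17, 2.75 and 0.32. Those closest to *Slit2* were *Zfp827* (0.9983), *Glyr1* (0.9969) and *Inf2* (0.9968), with log2 fold changes of -0.45, -0.19 and -0.58. With 6 mice in 2 genotypes, any gene with well separated groups reaches a high r, so these values only describe the order of the mice.

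Marker lists of other cell types and neighbouring regions were read beside these results. Of the 10 thalamus genes, 8 were tested, 3 fell and 1 rose, and the summed level was 168.9 to 204.1 CPM in control mice and 115.4 to 126.1 in cKO mice. Of the 10 hippocampus genes, 5 rose and 1, *Calb1*, fell, with a median log2 fold change of 0.71. The summed levels were 291.9 to 339.0 and 268.6 to 427.0, and they include the fall of *Calb1* (-1.41). The 3 of largest change were *Spink8* (3.86), *Tdo2* (3.36) and *Fibcd1* (2.27), each higher in every cKO mouse than in any control mouse. Of 9 tested striatum genes, 2 rose and 1 fell (518.6 to 622.7 and 443.0 to 738.7), and of 10 deep layer genes 1 rose and 2 fell (368.8 to 425.9 and 379.7 to 517.1). Of 10 general neuron genes 3 rose and none fell, with summed levels of 8828 to 9986 and 10644 to 11131. Of the 10 pyramidal neuron genes 5 rose, *Mef2c* among them, and 2 fell, *Emx1* among them. Among 10 interneuron genes, 2 rose and 1 fell, and the summed levels overlapped. Of 10 astrocyte genes, 2 rose and 1 fell, and the summed level was lower in all cKO mice (4987 to 5312 against 4412 to 4692). Of 10 oligodendrocyte genes 2 rose, with a median log2 fold change of 0.53 and overlapping summed levels of 3384 to 5557 and 5474 to 7062. Of 6 precursor genes 3 rose, and the summed level was higher in all cKO mice (232.1 to 254.7 against 268.2 to 308.3). None of the 10 microglia genes passed, although their summed level was lower in all cKO mice (245.7 to 274.1 against 227.0 to 242.5). None of the 10 endothelial and mural genes passed either, with summed levels of 261.3 to 284.8 and 248.5 to 277.5. Summed choroid plexus markers were between 9.56 and 31.8 CPM in every mouse. The part of these cell types and regions in the *Slit1*, *Slit2* and *Unc5d* results was not tested.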

How the data were processed

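The authors sequenced polyA RNA from 6 mice with directional libraries, aligned reads to mm9 with TopHat and Bowtie, counted them per gene with HTSeq, and deposited one table per mouse of RPKM values. Tool versions and the strand setting are not given in the sources used here. The lengths behind the deposited RPKM values followed a cycle of 65 to 296 lengths repeated over the rows in order of gene ID as text, with another cycle in each file, so RPKM values of one gene could not be compared between mice. Whole reads were recovered by dividing each value by that of 1 read of its length. This gave a whole number, within rounding of the last printed digit, for 99.8% to 99.88% of values above 0, and the reads summed to at least 99.96% of each total. The 92 rows with no gene name held 0.05% to 0.08% of reads and were left out. Counts of a gene were kept only if all files gave one, and 28 named genes had none in any mouse.

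Reads were divided by the total (19326365 to 54128334 per mouse) to give reads per 1000000 (CPM), and log2(CPM + 0.1) was tested with limma 3.58.1 (R 4.3.3, variance trend, no covariate) in genes above 0.5 CPM in all mice of a genotype. Fold changes on this scale understate changes of low genes. Recovery and test were tested on simulated data. The simulation used recycled lengths and the same order of gene IDs, so it cannot show that the deposited values were made this way. The labels do not say which mice share a litter. The p-values rest on the spread between these 3 mice per genotype, drawn by limma toward the trend of the variance over all tested genes. Members and lists were chosen with earlier results of these data known. Named genes are all 10 members, pathway genes past the cut-offs (12 at most, others given as values only), *Mef2c*, the 3 genes most like *Slit1* and *Slit2* each, and up to 3 markers of a list. *Unc5a*, *Myo10*, *Flrt2*, *Flrt3*, *Neo1*, *Unc5b*, *Cux2*, *Draxin*, *Lphn3*, *Calb1*, *Foxp1*, *Drd1* and *Penk* were named after their values were seen. So were *Emx1*, *Spink8*, *Tdo2* and *Fibcd1*. Alternatives were pseudocounts of 0.5 and 1, other filters, median-of-ratios factors, no variance trend, voom, the deposited RPKM, a replicate block, each mouse left out, the 12-week mice, and other cut-offs.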

Additional observations from a re-analysis of the deposited data

How the results depend on the processing

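The calls of *Slit1*, *Slit2* and *Unc5d* held under every alternative tried on recovered reads. With the deposited RPKM values, whose lengths differ between mice by construction, 0 members of 9 tested, 0 other pathway genes and 14 of all tested genes passed by limma. *Mef2c* was then at 0.02, and *Robo2* (-3.63), *Dcc* (-1.32), *Unc5c* (0.41), *Pak1* (2.44) and *Cap1* (-1.87) changed sign. Leaving out each mouse gave 3 to 5 members, 9 to 11 other pathway genes and 1656 to 1868 genes in all. The 5 came without cKO mouse 2 (1868 genes in all), and the 12-week mice also gave 5 members (1471 genes in all). *Robo2* was between -0.03 (without control mouse 3) and 0.05. With a cut-off of 1 on the log2 fold change, 2 other pathway genes and 472 genes in all passed, and the members stayed at 3. *Ntn5* also failed with no filter, no variance trend and the replicate block.

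With the replicate block, 3 members, 10 other pathway genes and 1694 genes in all passed, and it changed no call of a member. Same-numbered mice did not deviate together (r of -0.176, -0.108 and -0.081 over 14619 genes, against -0.025 to 0.122 for other pairs). With 3 such pairs this cannot exclude a shared litter or batch, and the numbers do match the mice by age.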

Other observations

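In the deposited RPKM, values of one gene ranged widely between mice. The highest was 189.9-fold the lowest for *Slit3*, 91.3-fold for *Robo2* and 6.99-fold for *Robo3*, while the CPM of *Robo2* were between 119.8 and 133.7 in all 6 mice. Of the other Mef2 genes, *Mef2d* was higher in cKO mice (log2 fold change 0.35, SE 0.05, adjusted p = 0.0018, limma), and *Mef2a* (0.16) and *Mef2b* (0.25) did not pass. The authors used DESeq where limma was used here, and the figure they cite for these genes also holds qPCR. They reported no significant change of *Mef2a* or *Mef2d*, so the *Mef2d* result differs from theirs. *Mef2d*, *Mef2a* and *Mef2b* were named after their values were seen.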
